A study of Solanum tuberosum with 8 samples.

Results

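The nitrate and nitrite reductase probes of a potato (Solanum tuberosum) leaf array were followed in wild-type (WT) plants and in the transgenic line Stpfld252, with and without water for 3 days. They were 6 of the 42034 potato probes on the array, and were taken because the study's lists of regulated transcripts, called on these same 8 arrays, described them as nitrate or nitrite reductase. Those lists were selected on Stpfld252 against WT under control watering, on drought against control in each line and, for some lists, on these and on Stpfld252 against WT under drought together, so the changes of the 6 probes are given below as a description, with errors and with no p-value, and the calls counted below, which use the study's kind of threshold, are no independent test of them. MICRO.18049.C1 and MICRO.390.C1 were described as potato nitrate reductase, POCD505TP as potato NADH nitrate reductase, and MICRO.10331.C1, MICRO.4468.C1 and MICRO.8565.C1 by a tobacco nitrite reductase entry. Each name matched 1 spot per array. Probes that may detect the same transcript had not been merged, and whether the 6 probes stand for 6 genes or fewer was not tested.

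Plants of cv Solara were grown from tuber slices for 4 weeks in a growth chamber. WT control plants stayed on the watering regime, and WT drought plants were of the same age and genotype but went 3 days without water. Stpfld252 control and Stpfld252 drought plants had the same 2 treatments and carried a flavodoxin gene of the cyanobacterium Anabaena, fused to the transit peptide of pea ferredoxin-NADP reductase and driven by the constitutive CaMV 35S promoter. Flavodoxin is a flavin protein that can stand in for the iron-sulfur carrier ferredoxin, and the transit peptide directs it to plastids, so the question was how an added plastid electron carrier altered the leaf response to early water shortage. Stpfld252 was a single transgenic line, so the transgene and the line cannot be told apart, and the transgene's own signal was not checked here. Young expanded leaves of the fifth node from 10 plants of each genotype and treatment were pooled, and each group had 2 pools from independent experiments, each on 1 single-colour array.

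Nitrate reductase is a cytosolic enzyme with a molybdenum cofactor, a heme and a flavin, which reduces nitrate to nitrite with electrons from NADH or NADPH. The nitrite then enters the plastid, where nitrite reductase, an enzyme with siroheme and an iron-sulfur cluster, reduces it to ammonium with electrons from ferredoxin. In leaves the transcripts of both enzymes are known to respond to nitrate, light and sugars, and nitrate reductase activity is known to decline in many plants when water is short.

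The identity of MICRO.8565.C1 was ambiguous. The study's lists described it as a nitrite reductase, while its table of PCR primers gave the same probe as Nitrate reductase 3 (NR3), and the RefSeq potato gene table held both names as separate genes, NR3 with the synonyms StNR2, StNR5 and StNR6, and NIR. The study assayed NR3 by quantitative PCR on leaves from independent experiments, and reported that the result followed its array values strictly, fold change included. The primers are shown because they are the sequence on record here under that probe's name. They let a reader check which transcript the PCR was aimed at, but not what the array probe itself detects. Both were 22 bases long with 50% G and C, and are written 5′ to 3′.
MICRO.8565.C1 forward primer: acttgctaacgctgaagcatgg
MICRO.8565.C1 reverse primer: tcaacgtgtaaggtcgctgagt
No sequence was at hand for the other 5 probes, and MICRO.8565.C1 is described below by its probe name, apart from the other nitrite reductase probes.

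Between 77.8% and 80.7% of the probes on an array were flagged well above background, and 36435 passed a filter on low signal, the 6 members among them. Replicate arrays differed by a root mean square SD of 0.136 to 0.174 (log2) per group. Of 8 probes for the leaf protein rubisco small subunit, 7 were well above background on all 8 arrays, as were 2 of 6 probes for the tuber protein patatin. The 4 control arrays lay on 1 slide and the 4 drought arrays on the other, so the effects of drought and of the slide cannot be told apart in either line, whereas the 2 lines were compared within a slide. Of 10 spike-in RNAs added to every sample, 8 were clearly measured. One of them, E1A_r60_3, read 10.57 and 10.61 (log2, mean of 32 spots) on the WT drought arrays and 12.24 to 12.79 on the other 6, the same arrays that stood apart for the members, and the other 7 differed by 0.11 to 0.32 between drought and control in WT. Its part in the results below was not tested.

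The 2 potato nitrate reductase probes had almost the same profile. MICRO.18049.C1 read 14.83 and 14.88 (log2 of the normalized signal) on the WT control arrays, 6.005 and 5.85 on the WT drought arrays, 13.34 and 13.35 on the Stpfld252 control arrays, and 12.76 and 12.80 on the Stpfld252 drought arrays. The WT drought arrays were far below all others, both Stpfld252 groups sat somewhat below WT control, and no 2 groups overlapped. MICRO.390.C1 read 13.42 and 13.68 in WT control, 4.68 and 4.84 in WT drought, 11.94 and 11.89 in Stpfld252 control, and 11.41 and 11.47 in Stpfld252 drought. The order of the groups was the same and they did not overlap. The narrowest step in that order, from Stpfld252 control to Stpfld252 drought, was 0.57 for MICRO.18049.C1 and 0.48 for MICRO.390.C1, against replicate gaps within those groups of at most 0.06.

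POCD505TP, the NADH nitrate reductase probe, was dimmer in every group and followed the same order. It read 10.66 and 10.83 in WT control, 3.56 and 3.68 in WT drought, 9.12 and 9.14 in Stpfld252 control, and 8.28 and 8.60 in Stpfld252 drought. Both WT drought values were below the 95th percentile of negative controls, which was at 4.07 and 4.06, and neither was flagged well above background, so the WT drought level of this probe is only a bound. The gap of 0.69 between the 2 Stpfld252 groups exceeded the gaps between replicates, 0.02 and 0.32.

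The nitrite reductase probes MICRO.10331.C1 and MICRO.4468.C1 were also lowest in WT drought, but the 2 Stpfld252 groups came in the opposite order. MICRO.10331.C1 read 13.66 and 13.65 in WT control, 8.80 and 8.99 in WT drought, 12.24 and 12.19 in Stpfld252 control, and 13.24 and 13.34 in Stpfld252 drought. Here Stpfld252 drought lay between the 2 control groups, 0.37 below WT control. MICRO.4468.C1 read 10.10 and 10.34 in WT control, 6.08 and 6.06 in WT drought, 8.28 and 8.33 in Stpfld252 control, and 9.58 and 9.96 in Stpfld252 drought. The groups did not overlap, although the gap of 0.46 between WT control and Stpfld252 drought was close to the 0.38 between the Stpfld252 drought replicates.

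MICRO.8565.C1 had the shallowest profile. It read 11.11 and 10.96 in WT control, 9.18 and 9.16 in WT drought, 11.04 and 11.03 in Stpfld252 control, and 10.46 and 10.36 in Stpfld252 drought. The 2 control groups overlapped, and their means differed by less than the spread between replicates. The drought groups lay below them in both lines, WT drought lowest.

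**Figure D1:**
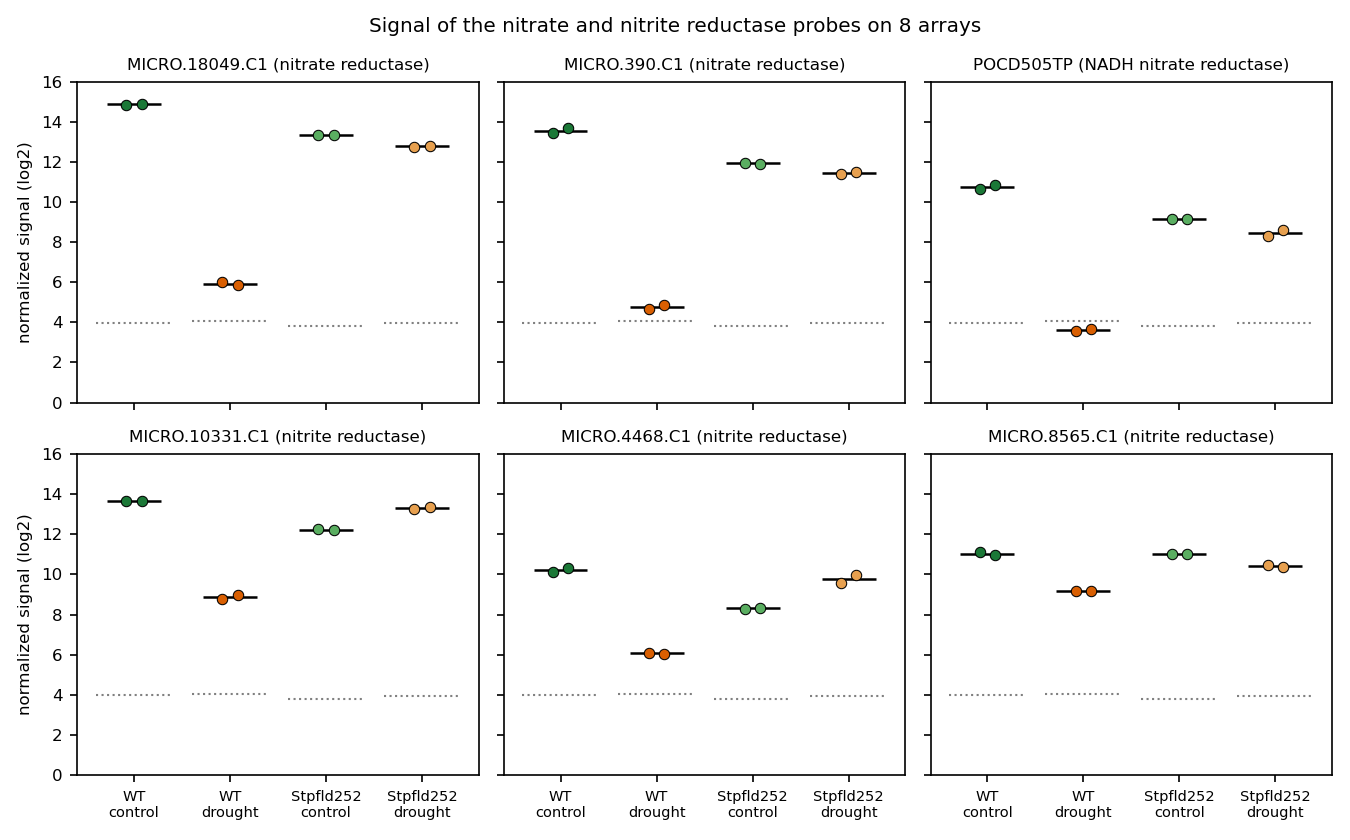
Normalized signal (log2) of each of the 6 probes, with 1 circle per array, a black bar at the mean of the 2 arrays of a group and a dotted grey line at the 95th percentile of negative controls. WT drought is the lowest group in every panel and POCD505TP falls under the dotted line there, while Stpfld252 drought stays between 8.28 and 13.34.

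The same ordering was present in the uncorrected spots. The spot of MICRO.18049.C1 had a median pixel intensity of 26143 and 25224 in WT control, 104 and 89.5 in WT drought, 10766 and 11590 in Stpfld252 control, and 6879 and 6676 in Stpfld252 drought. For MICRO.390.C1 the WT drought spots read 64 and 62.5 over a local background of 56 and 53.5, a ratio of 1.14 and 1.17, although both were flagged well above background. For POCD505TP they read 51 and 49.5, below the local background of 56 and 54. By contrast, MICRO.10331.C1 kept spots of 529.5 and 544 in WT drought, 9.37 and 10.1 times the local background, so its remaining level there was well measured. No spot of the 6 probes was saturated or flagged as an outlier on any array.

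**Figure D2:**
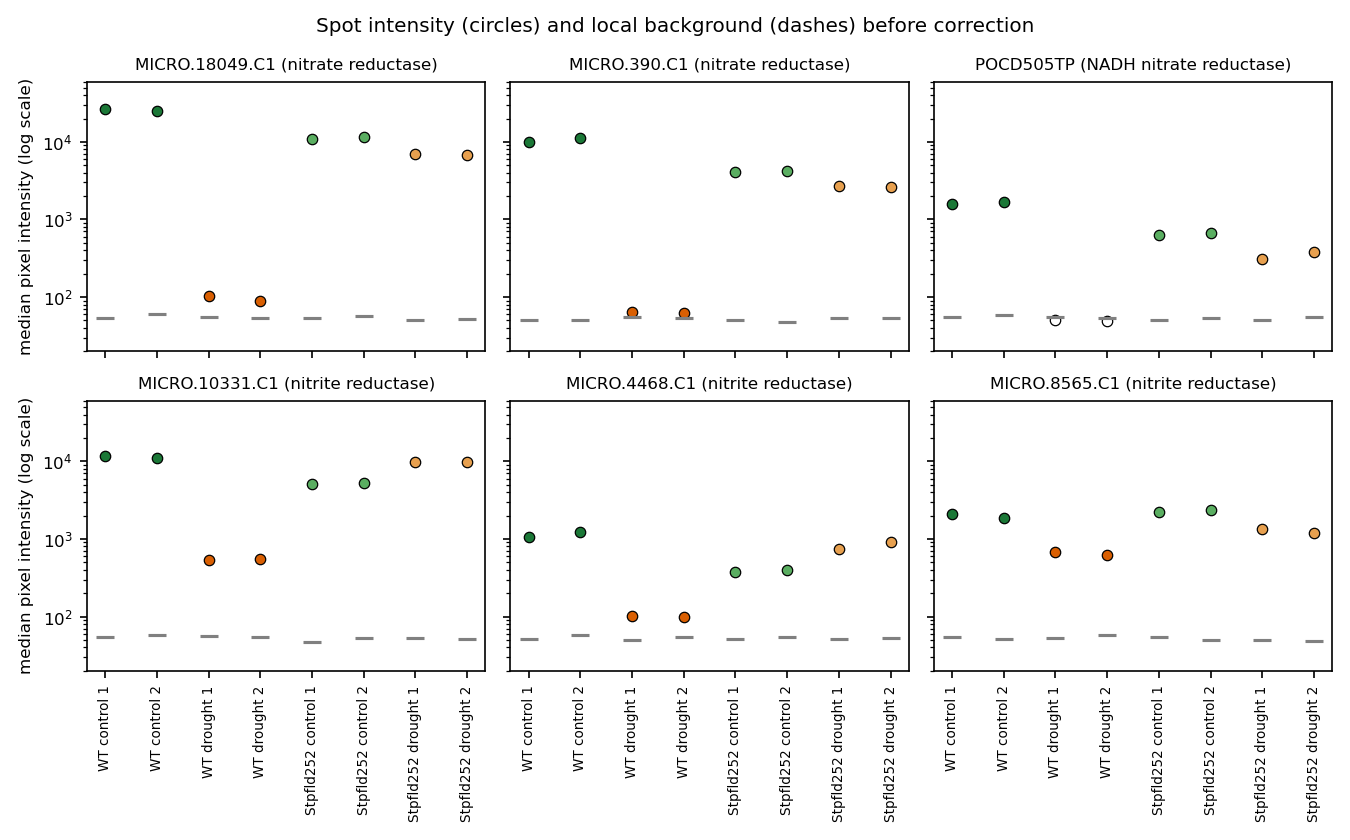
Median pixel intensity of each spot (circles, log scale) and of its local background (grey dashes) on each of the 8 arrays, before any correction, with an open circle where the spot was not flagged well above background. The 2 open circles are the WT drought spots of POCD505TP, at 51 and 49.5, and the WT drought spots of MICRO.390.C1 lie just over their background.

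The depth of the WT drought response differed greatly among the 6 probes. All 6 were called lower (limma, over 2-fold at a false discovery rate under 0.05), a call made for 10.3% of the 36435 probes, while 8.48% were called higher. Because drought in WT was among the contrasts that put the probes on the study's lists, nothing is read from that count. MICRO.18049.C1 fell by 8.92 (SE 0.079, log2), which left 0.206% of its WT control signal, and MICRO.390.C1 fell by 8.80 (SE 0.107), which left 0.225%. With the background correction used here, they held ranks 3 and 4 from the lowest change among all probes tested. POCD505TP fell by at least 134-fold under this background correction, taking for each WT drought array the higher of its own value and the lowest signal of any probe well above background. Its measured means were 10.75 in WT control and 3.62 in WT drought. On WT drought replicate 2 the floor was the probe's own value of 3.68, which was not above background. A higher floor would give a smaller bound. The 134-fold bound does not carry over to other corrections, since the change was −5.79 in the deposited table of log2 values and −4.78 with a normexp offset of 50.

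MICRO.10331.C1 fell by 4.76 (SE 0.0881), which left 3.68%, and MICRO.4468.C1 fell by 4.15 (SE 0.137), which left 5.62%. These 2 nitrite reductase probes kept a larger share of their control signal than the nitrate reductase probes did. MICRO.8565.C1 fell by 1.86 (SE 0.082) and kept 27.5%, at rank 1415 from the lowest. The median change over the 6 probes was −5.94, which rests in part on the bounded value of POCD505TP, against 0.04 over all probes tested. In these bulk samples, fewer cells expressing a gene and less RNA per cell cannot be told apart.

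In Stpfld252 the same 3 days without water brought no fall past 2-fold at any of the 6 probes, and 2 nitrite reductase probes rose. MICRO.4468.C1 was higher by 1.46 (SE 0.137), or 2.75-fold, and MICRO.10331.C1 by 1.07 (SE 0.0881), or 2.10-fold. These were the 2 of 6 probes called, both higher, where 5.88% of the 36435 probes were called higher and 8.14% lower. That balance moved with the scaling, since 41.9% of all calls in Stpfld252 were higher after quantile normalization and 55.2% after median scaling, which also moved the median change of all probes from 0.05 to 0.20, but the same number of members was called.

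The remaining 4 probes did not pass the 2-fold limit in Stpfld252. MICRO.18049.C1 differed between drought and control by −0.57 (SE 0.079), MICRO.390.C1 by −0.48 (SE 0.107), POCD505TP by −0.69 (SE 0.121) and MICRO.8565.C1 by −0.62 (SE 0.082). Their 95% intervals ran from −0.98 to −0.22 in all, and 61.9% to 71.8% of the control signal remained. In this line the changes of the nitrate reductase probes and of MICRO.8565.C1 were thus below 0 and those of MICRO.10331.C1 and MICRO.4468.C1 above 0, whereas in WT all 6 were below 0.

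**Figure D3:**
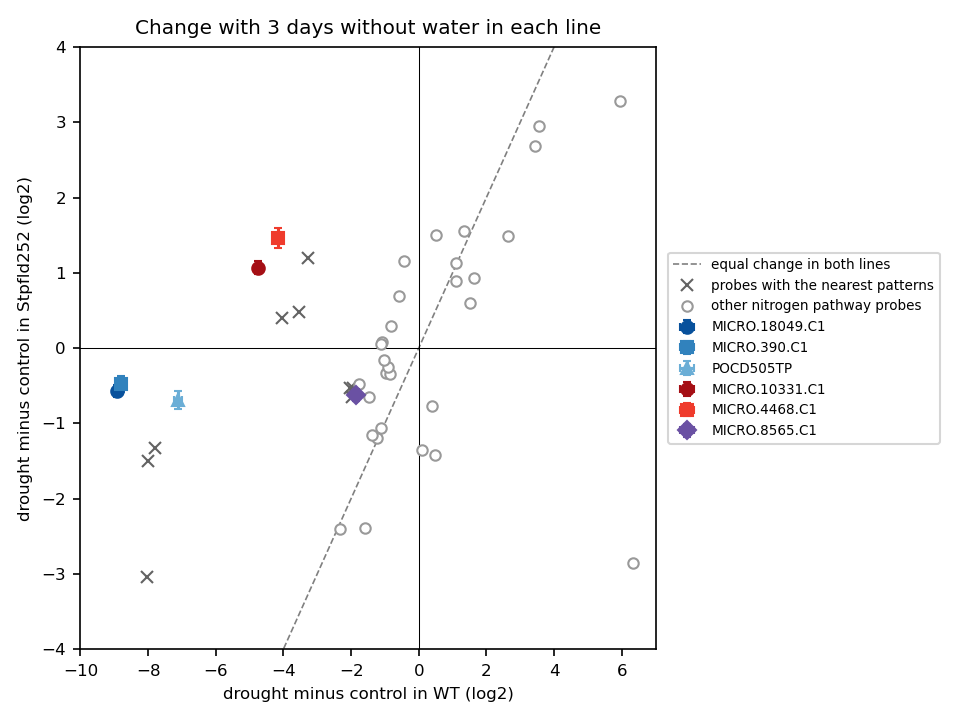
Log2 change between drought and control in WT (horizontal axis) and in Stpfld252 (vertical axis) for the 6 probes (filled symbols, bars are SE), for 30 other nitrogen pathway probes (open circles) and for the 9 probes with the nearest patterns (crosses), with a dashed line where both lines change equally. The 5 leftmost filled symbols lie between −8.92 and −4.15 in WT but between −0.69 and 1.46 in Stpfld252.

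With normal watering, 5 of the 6 probes were already lower in Stpfld252 than in WT, among 2.09% of the 36435 probes called lower, with 3.99% called higher. This contrast also chose the probes. MICRO.18049.C1 differed by −1.51 (SE 0.079), MICRO.390.C1 by −1.64 (SE 0.107), POCD505TP by −1.61 (SE 0.121), MICRO.10331.C1 by −1.44 (SE 0.0881) and MICRO.4468.C1 by −1.92 (SE 0.137). In Stpfld252 these 5 probes had 26.5% to 37.0% of the WT signal. The intervals of these 5 differences ran from −2.24 to −1.23 in all. MICRO.8565.C1 was the exception, at 0.00 (SE 0.082, 95% interval −0.19 to 0.20), an interval that does not meet those of the other 5.

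Without water the difference between the lines was reversed and far larger. All 6 probes were higher in Stpfld252 than in WT, among 6.15% of probes called higher and 5.15% called lower. MICRO.18049.C1 was higher by 6.85 (SE 0.079), or 115-fold, and MICRO.390.C1 by 6.68 (SE 0.107), or 103-fold. With other background corrections MICRO.390.C1 was higher by 5.18 to 7.78. POCD505TP was at least 27-fold higher by the same bound under the same correction, with measured means of 8.44 and 3.62, and the difference was 3.53 in the deposited table and 2.63 with an offset of 50. MICRO.10331.C1 was 21-fold higher, at 4.39 (SE 0.0881), and MICRO.4468.C1 13-fold, at 3.70 (SE 0.137). MICRO.8565.C1 was higher by 1.24 (SE 0.082), or 2.37-fold. Every Stpfld252 drought array was above every WT drought array for each probe, with the differences of MICRO.10331.C1 between single arrays running from 4.25 to 4.54 and those of MICRO.18049.C1 from 6.75 to 6.94.

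**Figure D4:**
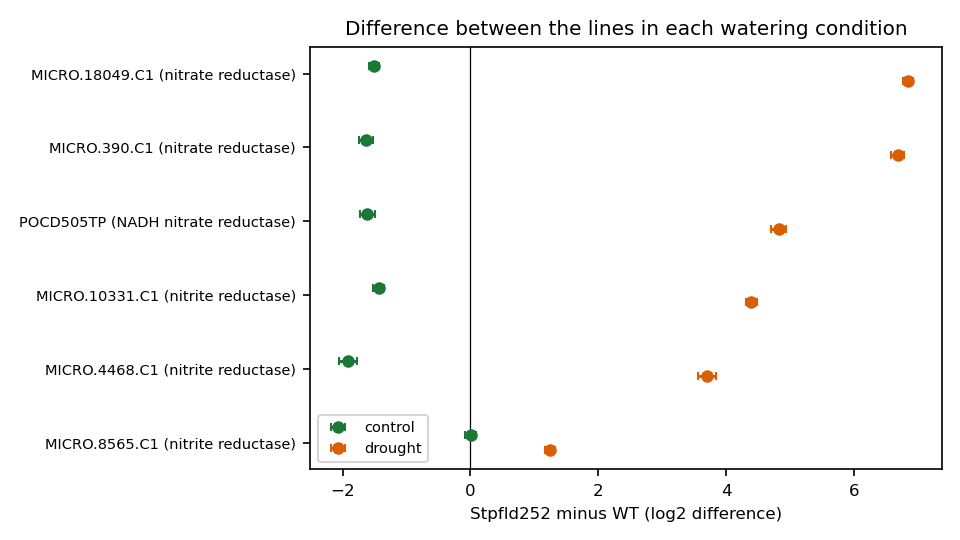
Difference between Stpfld252 and WT (log2, bars are SE) for each of the 6 probes under control watering (green) and after 3 days without water (orange). The first 5 probes lie between −1.92 and −1.44 in control and between 3.70 and 6.85 in drought, and MICRO.8565.C1 goes from 0.00 to 1.24.

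The difference between the 2 drought responses combines these contrasts, and all 6 probes were called higher in it, where 6.14% of the 36435 probes were called higher and 6.26% lower. It was 8.36 (SE 0.112) for MICRO.18049.C1 and 8.32 (SE 0.151) for MICRO.390.C1, ranks 1 and 2 from the highest. The value of MICRO.390.C1 ran from 6.80 to 9.27 with the background correction. With the processed signal it exceeded the 8.81 of MICRO.18049.C1, so the order of these 2 is not fixed. MICRO.10331.C1 and MICRO.4468.C1 followed with 5.83 (SE 0.125) and 5.61 (SE 0.194). For POCD505TP the WT drought level was only a bound, and its difference ran from 4.16 to 9.25 with the background correction, so it has no place in this order. MICRO.8565.C1 was at rank 1449, with 1.24 (SE 0.116). The WT part of this difference exceeded the Stpfld252 part for every probe.

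The members fell into 3 patterns of calls. The 3 nitrate reductase probes were lower with drought in WT, not called in Stpfld252, lower in Stpfld252 under control watering and higher in it under drought, a combination that 31 probes or 0.0851% of those tested had. MICRO.10331.C1 and MICRO.4468.C1 differed from it by being higher with drought in Stpfld252, as 16 probes or 0.0439% were. MICRO.8565.C1 was not called in control, a pattern of 661 probes or 1.81%. Nothing is read from these shares, since the probes came from lists defined by such calls.

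The profiles were set side by side by centring each probe on its own mean over the 8 arrays and taking the root mean square difference. MICRO.18049.C1 and MICRO.390.C1 differed by 0.13, less than the largest replicate SD. MICRO.10331.C1 and MICRO.4468.C1 differed by 0.41. POCD505TP differed from the other nitrate reductase probes by 0.76 and 0.84, with its spot at background on the WT drought arrays. MICRO.8565.C1 differed by 1.11 to 2.70 from every other member, a measure that also follows how shallow its changes were.

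Among all probes tested that were no members, those nearest to the mean nitrate reductase profile were MICRO.10963.C2 (0.353) and MICRO.4403.C1 (0.380), described as pectinesterase and pectin methyl esterase, cell wall enzymes that remove methyl groups from pectin. MICRO.10963.C2 changed by −8.02 with drought in WT and by −1.50 in Stpfld252. MICRO.894.C2, with no description in the lists, came next at 0.896 and was not well above background on either WT drought array. Around the mean of MICRO.10331.C1 and MICRO.4468.C1 the nearest probes were STMJF86TV (0.377) and MICRO.13629.C1 (0.447), both described as putative glucosyltransferase, and MICRO.4160.C1 (0.462), a lipase-like protein. MICRO.8565.C1 had closer company, with MICRO.7256.C1, described as the tomato E8 protein, at 0.0625, MICRO.8580.C1, with no description, at 0.0737, and MICRO.6669.C1, a rapid alkalinization factor or small secreted peptide signal, at 0.0751. The distances are a description over 8 arrays that share their normalization.

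The members lay between rows 118 and 486 of the array. The spots within 4 rows and 2 columns of each had median changes between −0.31 and 0.33 in the 5 comparisons. These medians describe the neighbouring spots only, and an effect of position on a single spot was not tested.

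The steps around the reductases were read from 30 other probes that the lists described under nitrogen uptake, cofactor, electron supply or ammonium assimilation, all of which passed the filter. They too come from lists called on these arrays, so their counts are a description. In WT 10 were higher and 10 lower with drought, in Stpfld252 8 were higher and 8 lower. Over all 36435 probes, 8.48% were higher and 10.3% lower in WT, and 5.88% and 8.14% in Stpfld252. Between the lines 7 were higher in Stpfld252 and 5 lower under control watering, and 8 higher and 4 lower under drought. Over all probes, 3.99% were higher and 2.09% lower under control watering, and 6.15% and 5.15% under drought. The median of the 30 was −0.51 with drought in WT and −0.05 in Stpfld252, and no probe called in these comparisons turned its sign under any of 20 alternative treatments of the data.

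Most transporter probes were higher with drought, opposite to the reductases in WT. Of 6 probes for nitrate or nitrite transporters, 4 were higher and 2 lower with drought in WT, and 4 were higher and 1 lower in Stpfld252. Of the 2 lower in WT, MICRO.8751.C1 was lower in both lines. The other, bf_mxlfxxxx_0014b09.t3m.scf, a putative nitrate transporter, changed by −1.75 (SE 0.085) in WT and by −0.47 (SE 0.085) in Stpfld252, not called. Under drought it was higher in Stpfld252 than in WT, at 1.62 (SE 0.085), as the members were. MICRO.14844.C1, a nitrate transporter, read 6.21 and 6.15 in WT control, 12.17 and 12.07 in WT drought, 7.37 and 7.46 in Stpfld252 control, and 10.69 and 10.71 in Stpfld252 drought. It was thus highest where the nitrate reductase probes were lowest, and rose by 5.94 (SE 0.0762) in WT and 3.29 (SE 0.0762) in Stpfld252. Both probes listed under the molybdenum cofactor were higher in WT, MICRO.6590.C1, described as a cofactor sulfurase-like protein, by 1.62 (SE 0.103). In Stpfld252 the change of MICRO.6149.C1, described as Cnx3, was the larger one, at 1.13 (SE 0.081). Whether the sulfurase-like probe bears on the cofactor of nitrate reductase was not tested.

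The lists also held probes for proteins that act on nitrate reductase or on nitrate-responsive genes. 14-3-3 proteins, which in spinach and Arabidopsis bind phosphorylated nitrate reductase and inactivate it, had 3 of 3 probes lower with drought in both lines, led by MICRO.1500.C3 at −2.32 (SE 0.138) in WT and −2.41 (SE 0.138) in Stpfld252. A NIN-like factor, MICRO.12167.C1, belongs to the family that activates nitrate-responsive genes in Arabidopsis. Its drought change was −0.97 (SE 0.0985) in WT and −0.34 (SE 0.0985) in Stpfld252, neither called, but it was lower in Stpfld252 than in WT under control watering, at −2.11 (SE 0.0985), as were 5 members, and also under drought, at −1.48 (SE 0.0985), where the members were higher.

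Ferredoxin is the electron donor of nitrite reductase. Of 6 probes listed under ferredoxin, of which MICRO.5835.C1 and cSTB41K8TH were described only as ferredoxin-related, 1 was higher and 2 were lower with drought in WT, MICRO.5835.C1 among the latter. The other lower one was MICRO.11295.C1, described as ferredoxin I, at −1.10 (SE 0.089) in WT. It differed by 0.07 (SE 0.089) in Stpfld252, not called, and was higher in Stpfld252 than in WT under drought, at 1.15 (SE 0.089). The largest change in WT was 1.51 (SE 0.0857) at bf_mxflxxxx_0058h06.t3m.scf, a putative ferredoxin, and the largest in Stpfld252 was −1.42 (SE 0.121) at MICRO.9842.C1, a non-photosynthetic ferredoxin that was well above background on 5 arrays. Under drought 5 of the 6 were higher in Stpfld252 than in WT, both ferredoxin-related probes among them. The 2 non-photosynthetic ferredoxin probes, MICRO.9842.C1 and bf_mxflxxxx_0070d09.t3m.scf, were already higher in Stpfld252 under control watering, at 2.95 (SE 0.121) and 2.90 (SE 0.121). They were called lower in the difference of the drought responses, at −1.91 (SE 0.172) and −1.44 (SE 0.171), where 3 of the 6 were called higher. Of 2 ferredoxin-NADP reductase probes, MICRO.4050.C1 was lower with drought in WT, at −1.48 (SE 0.101), and MICRO.609.C2, which was higher in WT, differed by 0.89 (SE 0.138) in Stpfld252, not called.

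Downstream, the probes did not move as a block. Glutamine synthetase, which fixes ammonium onto glutamate, had 1 of 3 probes lower with drought in each line, MICRO.8061.C1, at −1.59 (SE 0.0906) in WT and −2.39 (SE 0.0906) in Stpfld252. Under control watering MICRO.8061.C1 was higher in Stpfld252 than in WT, at 3.29 (SE 0.0906). MICRO.1095.C1 and MICRO.1095.C2 were not called with drought in either line. They were lower in Stpfld252 under control watering, at −1.42 (SE 0.0893) and −1.32 (SE 0.098). In the difference of the drought responses they were called higher, at 1.28 (SE 0.126) and 1.12 (SE 0.139), and MICRO.8061.C1 was not called. For glutamate synthase, MICRO.8806.C1, described as the ferredoxin-dependent enzyme, was lower in WT, at −1.03 (SE 0.0705), and MICRO.292.C1 differed by −0.77 (SE 0.0849) in Stpfld252, not called. Under control watering MICRO.292.C1 was higher in Stpfld252 than in WT, at 1.51 (SE 0.0849). In the difference of the drought responses MICRO.292.C1 was called lower, at −1.17 (SE 0.12). MICRO.8806.C1 was called in neither of these contrasts. Neither of 2 glutamate dehydrogenase probes was called with drought: bf_stolxxxx_0055h06.t3m.scf differed by −0.90 (SE 0.115) in WT and MICRO.7144.C1 by −0.35 (SE 0.0726) in Stpfld252. Both were lower in Stpfld252 than in WT under control watering, at −1.24 (SE 0.115) and −1.06 (SE 0.0726).

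Among the ammonium transporters, MICRO.5703.C2 was higher by 1.34 (SE 0.0729) in WT and 1.55 (SE 0.0729) in Stpfld252. The other probe, MICRO.5703.C1, was called higher with drought in Stpfld252 and was not called in WT. MICRO.5703.C1 was also higher in Stpfld252 than in WT, at 1.19 (SE 0.128) under control watering and 2.19 (SE 0.128) under drought. MICRO.5703.C2 was called in neither of these contrasts between the lines, and neither probe was called in the difference of the drought responses. MICRO.3150.C2, asparagine synthetase, which moves the amide nitrogen of glutamine onto aspartate, had the most negative difference between the 2 drought responses among the 30 probes. It read 10.73 and 10.76 in WT control, 17.10 and 17.07 in WT drought, 13.70 and 13.73 in Stpfld252 control, and 10.81 and 10.90 in Stpfld252 drought. It was highest by far where the reductases were lowest, higher in Stpfld252 under control watering where 5 reductase probes were lower, and lower with drought in Stpfld252.

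**Figure D5:**
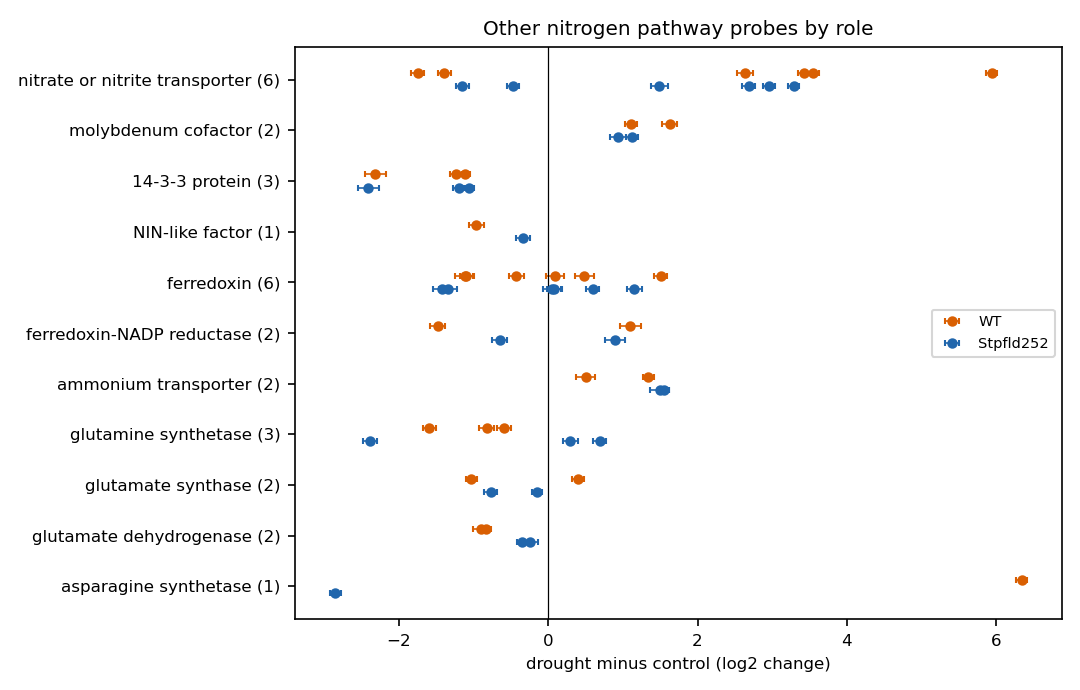
Log2 change between drought and control in WT (orange) and Stpfld252 (blue) for the 30 other nitrogen pathway probes, grouped by role with the number of probes in brackets (bars are SE). The 4 transporter probes that were higher in WT reach 5.94, and asparagine synthetase lies on opposite sides of 0 in the 2 lines.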

How the data were processed

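RNA pools of potato leaves were measured on 8 Agilent POCI arrays of design 015425, 2 per group. The deposited scanner files give median intensities of spots and of the background around them, the processed signal intensity and quality flags (coded 0 or 1), made by the authors with Feature Extraction 11.5.1.1 per the file headers. A deposited table of log2 values holds the authors' background-corrected and quantile-normalized signal, whose offset is not stated. Fitted here, it gave 1097 probes higher and 578 lower in Stpfld252 against WT in control, the counts the study reported. The offset of 0 used here gave 1452 and 762. With an offset of 16, MICRO.390.C1 changed by −8.11 with drought in WT, against −8.06 in the deposited table. That table served as an alternative, in which MICRO.390.C1 and POCD505TP changed less with drought in WT than with the offset used here. No column was left unmatched to a sample.

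Spots were corrected with normexp and quantile-normalized, as in the study's methods, in limma 3.58.1 under R 4.3.3, here with an offset of 0. Control spots were removed, and probes were tested if 1 or more groups had both arrays above 1.1 times the 95th percentile of 153 negative controls. The offset, the background estimate and the percentile were chosen here, since the methods give a margin over background only. A model with 4 group means was fitted to all 8 arrays, with 4 residual degrees of freedom, and 5 contrasts were formed. Probes were called by limma's moderated test with Benjamini-Hochberg adjustment at a false discovery rate under 0.05 and over 2-fold. Errors are moderated standard errors. The number of arrays limits the precision. The fit was tested on simulated data with known changes.

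The members, the pathway list and the comparisons were chosen with earlier results of these data known. Named probes were the 6 members, the probe with the largest drought change of each pathway role in each line, and the 3 nearest profiles to each pattern of members. MICRO.14844.C1 and MICRO.3150.C2 were given array by array after their values were seen. Further transporter, ferredoxin, glutamine synthetase, glutamate synthase and glutamate dehydrogenase values were likewise added after they were seen. Alternatives covered background correction, scaling, the filter, outlier spots, the deposited table, the moderation, the samples in the fit, a replicate block and leaving out each array. Replicate numbers were not used to pair the samples in the main fit. The correlations of replicate deviations ran from −0.112 to 0.129 between groups. They cannot tell whether arrays with the same replicate number came from the same experiment. Probe sequences were not used here.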

Additional observations from a re-analysis of the deposited data

Results flagged for a closer look

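At all 6 probes the gap between the WT and Stpfld252 changes with drought passed the calling threshold of limma's fit (false discovery rate under 0.05 and over 2-fold). For this gap 6.14% of the 36435 probes were called higher and 6.26% lower. The drought contrasts behind it helped to choose the probes, so the values are a description and no independent test. The difference, Stpfld252 response minus WT response on the log2 scale, was 8.36 for MICRO.18049.C1, 8.32 for MICRO.390.C1, 6.43 for POCD505TP, 5.83 for MICRO.10331.C1, 5.61 for MICRO.4468.C1 and 1.24 for MICRO.8565.C1. The value of POCD505TP rests on a WT drought level not above background and ran from 4.16 to 9.25 with the background correction. For MICRO.10331.C1 and MICRO.4468.C1 the arrays moved down in WT and up in Stpfld252, while the other 4 were lower under drought on every array of both lines.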

How the results depend on the processing

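The number of members called in each of the 5 comparisons stayed within 1.5 times under every alternative run, 20 for each but the difference of responses, to which the fit on 4 arrays does not apply. Among the member values recomputed, 586 kept their sign and their side of the threshold, and 3 turned their sign, each for MICRO.8565.C1 in Stpfld252 against WT under control watering: −0.0161 with median scaling, −0.0754 without WT control replicate 2 and −0.0020 without Stpfld252 control replicate 1, against 0.0018, with a range of −0.0754 to 0.0790 when 1 array was left out, all within its error. The size of the deep WT responses depended on the background correction. With drought in WT, MICRO.390.C1 ran from −9.71 with the processed signal to −7.27 with an offset of 50, POCD505TP from −9.87 to −4.78, and MICRO.18049.C1 from −9.22 to −8.06, and between the lines under drought MICRO.390.C1 ran from 5.18 to 7.78 and POCD505TP from 2.63 to 7.67. The deposited table gave −8.57 for MICRO.18049.C1, −8.06 for MICRO.390.C1 and −5.79 for POCD505TP with drought in WT. POCD505TP did not pass the filter that asks for signal on all 8 arrays, which leaves 5 members to call. Of the pathway probes, 20 were called with drought in WT, and 16 with an offset of 50, the processed signal or median scaling. The replicate block called 6, 2, 5, 6 and 6 members in the 5 comparisons, as without it, and changed no call among members. With an offset of 50 fewer probes were called in all: 861 higher and 452 lower in Stpfld252 against WT in control (1452 and 762 before), 1471 and 1219 in drought (2241 and 1875), 1341 and 1992 with drought in Stpfld252 (2141 and 2967), and 1442 and 1480 in the difference of responses (2237 and 2281). With the processed signal 2454 were higher and 1000 lower in control. Depth of signal limits the WT drought level of POCD505TP, and nearly that of MICRO.390.C1.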
